A study of Homo sapiens with 2 samples.

Results

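The miRNA hairpins numbered mir-1200 to mir-1324 include entries that overlap, or share sequence with, other small RNA genes. They were taken here by number alone: every entry whose precursor name falls between them, with any suffix, without the mirtrons (hairpins that are whole short introns) mir-1224 to mir-1229 and mir-1236 to mir-1238. This gave 123 of 2363 table entries, 102 of 2042 mature names and 106 of 1600 hairpins. The values come from small RNA sequencing of hCMEC/D3, an immortalised line of human brain microvascular endothelial cells used to model the blood-brain barrier. The series holds 1 group of 2 libraries, replicate 2 and replicate 8, with no treatment and no second genotype, so there is no comparison of conditions. Nothing in the labels says whether the replicates were separate cultures, so the spread between them may be technical.

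A miRNA is cut from a hairpin transcript in 2 steps, by Drosha with DGCR8 in the nucleus and by Dicer in the cytoplasm, and either arm of the hairpin (5p or 3p) can be kept. The kept strand binds messenger RNAs mainly through its seed, bases 2 to 8 from its 5′ end. Fragments of transfer RNAs, small nucleolar RNAs (snoRNAs, which guide modification of other RNAs) and small nuclear RNAs (snRNAs, which form the spliceosome) have a similar size, and a read of such a fragment is counted as a miRNA where the sequences are the same.

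The sequences that the results turn on are shown with the seed in capitals. They are RefSeq entries (build GRCh38.p14), to which 70 of the 102 mature names could be matched. The first pair are the arms of the most abundant hairpin, the next pair resemble U2 snRNA, and the third pair are listed as transfer RNA fragments.

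miR-1307-3p: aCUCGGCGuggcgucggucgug
miR-1307-5p: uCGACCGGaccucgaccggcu
miR-1246: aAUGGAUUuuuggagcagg
miR-1290: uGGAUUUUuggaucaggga
miR-1260a: aUCCCACCucugccacca
miR-1260b: aUCCCACCacugccaccau

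Of these pairs, only miR-1260a and miR-1260b share a seed. Over the first 18 bases, counted from the 5′ end, they differ by 1 substitution, U9A (the base of miR-1260a first). The seeds of miR-1246 and miR-1290 differ, although the sequences share a run of 12 bases. RNU2-48P is an annotated copy of the U2 snRNA gene, 191 bases long, and the P in its name marks a pseudogene. A stretch of it, bases 94 to 114, holds the same run (build GRCh37, read on the gene's strand). The shared run is in capitals.

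miR-1246: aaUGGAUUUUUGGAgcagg
miR-1290: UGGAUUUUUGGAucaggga
RNU2-48P: aaUGGAUUUUUGGAgcaggga

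All 19 bases of miR-1246 are in this stretch. The stretch differs from miR-1290 by 1 substitution, G13U, with the U2 copy's base first and positions counted along miR-1290. The following pair of hairpins overlap genes of H/ACA snoRNAs, the class that guides pseudouridylation. Each extends beyond the snoRNA gene at one end, while its mature sequence, in capitals, lies inside.

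MIR1248: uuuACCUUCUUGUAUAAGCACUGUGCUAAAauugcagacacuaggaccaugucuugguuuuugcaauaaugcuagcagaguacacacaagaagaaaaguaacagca
MIR1291: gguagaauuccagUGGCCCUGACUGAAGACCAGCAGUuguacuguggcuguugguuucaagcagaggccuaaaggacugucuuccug

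The next sequences, with seeds in capitals, come from the repeat-derived entries. miR-1268a is the first 18 of the 20 bases of miR-1268b, so a read that ends within those bases is the same for both.

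miR-1268a: cGGGCGUGgugguggggg
miR-1268b: cGGGCGUGguggugggggug
miR-1285-3p: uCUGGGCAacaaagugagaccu
miR-1303: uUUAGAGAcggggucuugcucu

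After entries with the same mature name were reduced to the highest, the libraries held 2721287 and 2727675 counts, and levels are given as CPM, each count divided by its library's total and scaled to a common total. A count of 0 allows a level of up to 1.10 CPM, taken as 3 counts. The labels mention no molecular identifiers, so intervals, limits and tests on counts cover counting error only. The endothelial marker miR-126-3p was the most abundant miRNA of the table, at 112226 ± 4003 CPM (SD, n = 2). Of miR-124-3p, a neuronal miRNA, 3 and 1 counts were found, and the blood miRNAs miR-223-3p and miR-142-3p and the epithelial miR-141-3p had none. Other markers of different cell types were present: the mural miR-143-3p (2000 and 871 counts in replicates 2 and 8), the mural miR-145-5p (271 and 200), the liver miR-122-5p (639 and 688) and the epithelial miR-200c-3p (118 and 85). Their part in the results below was not tested.

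Of the 102 mature names, 38 (37.3%) were detected, meaning 10 or more counts in each library, against 26.6% of all names in the table. Another 27 had some count without reaching that level, and 37 names (36.3%) had no count in either library, against 44.5% of the table. Together the members summed to 20895 CPM in replicate 2 and 17580.2 CPM in replicate 8, a mean of 19237.5 ± 2344 CPM. The sum was higher in replicate 2. Of the 102 names, 12 had more than 1 entry, and for 8 of these all entries held the same counts.

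**Figure D1:**
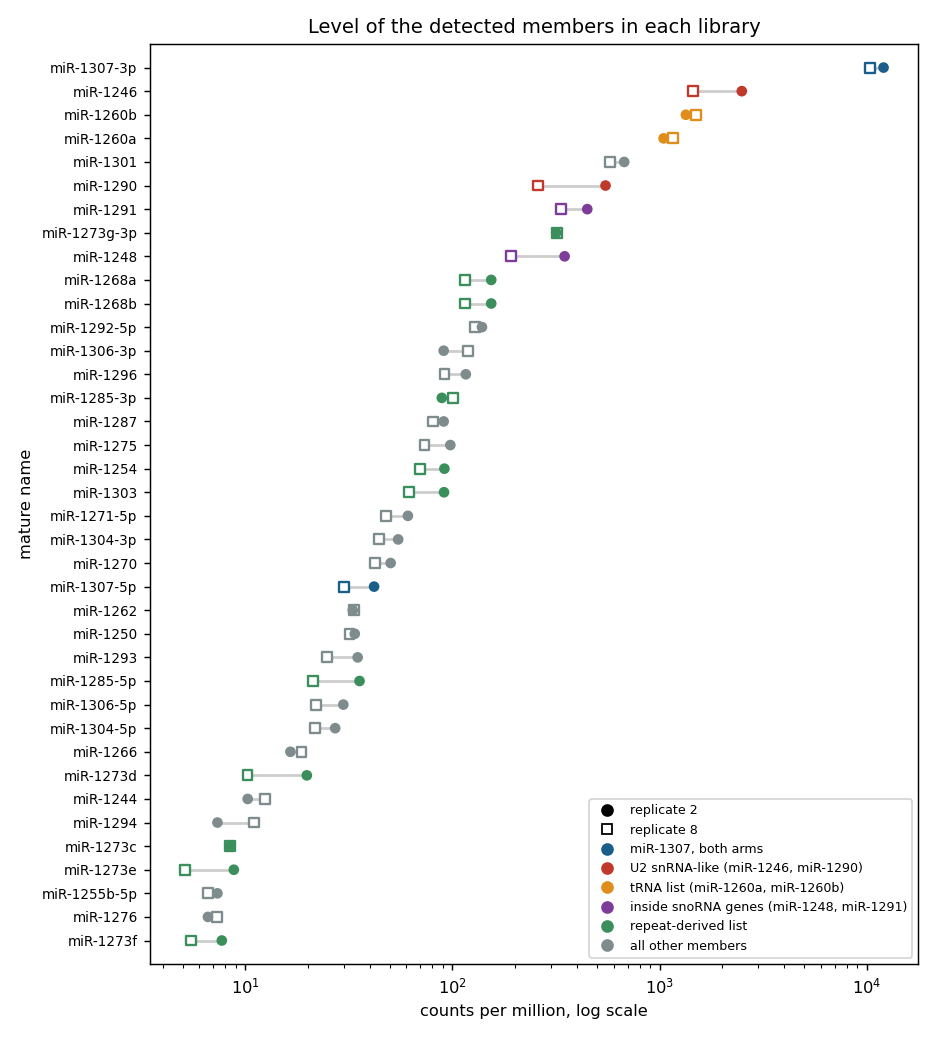
Level of the 38 detected members in CPM on a log axis, one line per mature name, with replicate 2 as filled circles and replicate 8 as open squares, coloured by kind of entry. miR-1307-3p stands apart at the top, at 12035 and 10384 CPM. The widest gaps between the libraries are those of miR-1290, miR-1273d and miR-1248, and miR-1246 also has a wide gap.

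A single arm held most of the counts. miR-1307-3p was counted 32750 times in replicate 2 and 28325 times in replicate 8, which is 57.6% (95% Wilson interval 57.2 to 58.0) and 59.1% (58.6 to 59.5) of all member counts. Its level of 11209.5 ± 1167 CPM put it at rank 23 of the whole table. MIR1307 lies on chromosome 10 at 105154010 to 105154158 (GRCh37, minus strand) and overlaps an exon and a UTR of ATP5MK, which encodes a small subunit of mitochondrial ATP synthase. With miR-1246 and miR-1260b, the next in level, the 3 most abundant names held 75.9% of the member counts in both libraries. The 9 most abundant names, miR-1307-3p to miR-1248, held 92.1% in replicate 2 and 92.0% in replicate 8.

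After miR-1307-3p the order was miR-1246, miR-1260b, miR-1260a and miR-1301. The libraries differ on the order of miR-1246 and miR-1260b: miR-1246 was the higher in replicate 2 (2492 against 1339 CPM) and miR-1260b in replicate 8 (1503 against 1456 CPM). miR-1260a lay below miR-1260b in both libraries. miR-1301, the most abundant member outside MIR1307 and the small RNA entries, had 1836 and 1564 counts, or 624 ± 71.6 CPM. Its gene MIR1301 is in an intron of DNMT3A, a DNA methyltransferase, on chromosome 2 at 25551509 to 25551590 (minus strand). The table names no arm for it, so both RefSeq arms are in capitals in its hairpin.

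MIR1301: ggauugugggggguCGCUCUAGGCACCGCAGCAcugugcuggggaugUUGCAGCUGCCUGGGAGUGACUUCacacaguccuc

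The list of entries reported to overlap other small RNA genes had 5 names with an entry in the table, and all 5 were detected: miR-1246 (snRNA), miR-1260a and miR-1260b (transfer RNA), and miR-1248 and miR-1291 (snoRNA). They held 15435 of the 56861 member counts in replicate 2, which is 27.1% (26.8 to 27.5), and 12673 of 47953 in replicate 8, which is 26.4% (26.0 to 26.8). The other listed precursors, mir-1274a, mir-1274b, mir-1280, mir-1308, mir-1201 and mir-1259, were not analysed here. The summed share was near the same in both libraries, but the classes within it were not. The snRNA entry held 11.9% (11.7 to 12.2) of member counts in replicate 2 and 8.28% (8.04 to 8.53) in replicate 8. The transfer RNA pair differed the other way, with 11.4% (11.2 to 11.7) and 15.1% (14.8 to 15.5). The member total was lower in replicate 8, which raises this share: in CPM the pair had 2385 in replicate 2 and 2663 in replicate 8. The snoRNA pair had 3.81% (3.65 to 3.97) and 3.00% (2.85 to 3.16).

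**Figure D2:**
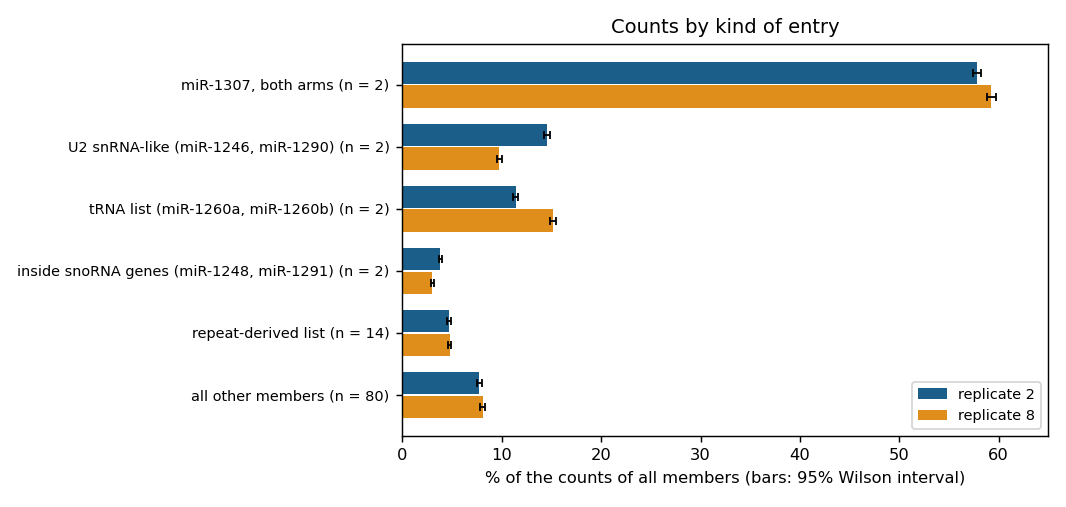
Share of all member counts in % by kind of entry, with replicate 2 in blue and replicate 8 in orange, bars from 0 and 95% Wilson intervals as error bars. The pair miR-1246 and miR-1290 was higher in replicate 2 (14.5% against 9.76%) and the pair miR-1260a and miR-1260b higher in replicate 8 (15.1% against 11.4%).

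For the snoRNA pair the overlap is in the annotation itself. MIR1248, on chromosome 3 at 186504461 to 186504566 (plus strand), overlaps SNORA81 within EIF4A2, which encodes an RNA helicase of translation initiation. The 27 bases of miR-1248 are bases 1 to 27 of the snoRNA, and they matched the genome at no other place. MIR1291, on chromosome 12 at 49048227 to 49048313 (minus strand), overlaps SNORA34 in an intron of KANSL2, which encodes a subunit of a histone acetyltransferase complex. The 24 bases of miR-1291 are bases 2 to 25 of that snoRNA. Both mature sequences, shown in capitals in the hairpins above, thus start at or next to the 5′ end of a snoRNA, and a count at either name does not separate a miRNA from a snoRNA fragment. For miR-1248 there were 947 counts (replicate 2) and 525 (replicate 8), or 270 ± 110 CPM. miR-1291 had 1218 and 913, or 391 ± 79.8 CPM. Both were lower in replicate 8.

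For miR-1246 the overlap is one of sequence. MIR1246 lies on chromosome 2 at 177465708 to 177465780 (minus strand), with no gene on its strand. Its mature sequence matched GRCh37 exactly at 7 places, of which 1 is the hairpin and 6 are in annotated U2 copies (RNU2-6P, RNU2-7P, RNU2-33P, RNU2-37P, RNU2-48P and RNU2-61P). Another 12 U2 copies held it with 1 mismatch. miR-1290, which was not on the list, was placed beside it after its sequence and values were seen. No annotated small RNA gene held miR-1290 exactly, and 10 U2 copies held it with 1 mismatch. All these U2 copies have the P of a pseudogene in their names, and whether they are transcribed was not tested. MIR1290 is in an intron of ALDH4A1, an enzyme of proline breakdown, on chromosome 1 at 19223565 to 19223642 (minus strand). miR-1246 was counted 6781 times in replicate 2 and 3972 times in replicate 8, or 1974 ± 732 CPM. miR-1290 had 1492 and 707, or 404 ± 204 CPM. Both had clearly fewer counts in replicate 8, and their spread over the libraries was large for their level. The spread of miR-1248 (270 ± 110 CPM) was also large for its level.

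The transfer RNA pair was not found, at 0 or 1 mismatch, in any small RNA gene of the annotation read here, in which nuclear transfer RNA genes were not analysed. MIR1260A is on chromosome 14 at 77732561 to 77732633 and MIR1260B on chromosome 11 at 96074602 to 96074690, both on the plus strand, antisense to NGB (neuroglobin) and MAML2 (a Notch coactivator). miR-1260a matched the genome exactly at 4 places and miR-1260b at 2. miR-1260a was counted 2844 times in replicate 2 and 3163 times in replicate 8, or 1102 ± 81.0 CPM, and miR-1260b had 3645 and 4100, or 1421 ± 116 CPM. Both were slightly higher in replicate 8.

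Some members derive from repeats such as Alu, the element whose ancestor is the 7SL RNA of the signal recognition particle. The repeat-derived list (mir-1254, mir-1268, mir-1273, mir-1285, mir-1302 and mir-1303) had 14 names. Of these, 11 were detected, against 26.6% of all names in the table. The list held 4.69% and 4.75% of the member counts. The highest was miR-1273g-3p, with 862 and 868 counts, or 317 ± 1.03 CPM, from an intron of SCP2, which encodes sterol carrier protein 2. This was the closest pair of values among the 9 most abundant names. miR-1268a and miR-1268b both had 419 counts (replicate 2) and 315 (replicate 8) and are not separate measurements, as their sequences above show. Both names are nevertheless in the list's number of detected names and in its share. From its own hairpin mir-1268a the table gives miR-1268a 409 and 296 counts. miR-1285-3p had 242 and 274 counts, miR-1285-5p 97 and 58, miR-1254 249 and 190, and miR-1303 248 and 169. MIR1285-1 is in an intron of KRIT1, a gene mutated in cerebral cavernous malformations, which are lesions of brain endothelium, and MIR1303 is in an intron of LARP1, which encodes an RNA-binding protein. The rest of the mir-1273 group was low: miR-1273d had 54 and 28 counts, miR-1273c 23 and 23, miR-1273e 24 and 14, miR-1273f 21 and 15, and miR-1273a 7 and 9. miR-1302, with 11 entries from as many hairpins, had no count.

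Many of the mature sequences occur more than once in the genome. Of the 70 members with a RefSeq sequence, 29 (41.4%) matched GRCh37 exactly at more than 1 place, against 18.4% of the 1716 matched names of the table. At 10 or more places the shares were 10.0% (7 names) and 1.46%. miR-1303 matched at 35 places, miR-1268a at 33 and miR-1285-3p at 18. miR-1268a also matched 2 annotated 7SL copies with 1 mismatch, and miR-1285-3p matched 3. The median length of the 26 detected members with a sequence was 22 bases, the same as for all detected names, but 7 of them (26.9%) were under 20 bases, against 4.37% of all detected names. A count at a name with several matches can hold reads from any of its genomic copies.

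The remaining members with at least 100 summed counts were spread over introns and exons of genes of many kinds. miR-1292-5p was counted 378 times in replicate 2 and 350 times in replicate 8, and its hairpin overlaps coding sequence of NOP56, a core protein of box C/D snoRNA complexes. miR-1306-3p had 247 and 323 counts and miR-1306-5p 81 and 60, from a hairpin that overlaps coding sequence of DGCR8, the partner of Drosha named above. miR-1287 had 247 and 220 counts, from a hairpin that overlaps coding sequence of PYROXD2. Among these, miR-1306-3p alone was higher in replicate 8.

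From introns came miR-1296 (JMJD1C) with 316 and 250 counts, miR-1271-5p (ARL10) with 166 and 131, miR-1250 (AATK) with 92 and 87, miR-1262 (WLS) with 90 and 91, and miR-1293 (LIMA1) with 95 and 68. Of these host genes, WLS encodes a carrier for secreted Wnt proteins and LIMA1 an actin-binding protein. MIR1304 overlaps an exon of TAF1D, a factor of RNA polymerase I, and gave miR-1304-3p with 149 and 121 counts and miR-1304-5p with 74 and 59. miR-1275, with 266 and 200 counts, has no gene on its strand, and miR-1270 had 137 and 115 counts. Except for miR-1262, which was level, each of these names had fewer counts in replicate 8, though miR-1250 changes sign with the library sizes of TMM or DESeq2 (described below). Over all 106 hairpins, 88 were located, of which 53 were in introns, 14 in exons and 21 outside any gene on their strand. An entry was detected for 19 of the 53 (35.8%), 7 of the 14 (50%) and 8 of the 21 (38.1%), and for 6 of the 18 not located (33.3%). The same shares over all hairpins of the table were not computed, so no difference between these contexts is drawn from them.

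At the low end were 18 names with 10 to 99 summed counts and 18 with 1 to 9. The detected names among them ran from 6.61 CPM (miR-1273f) to 17.6 CPM (miR-1266). The 6 names of the PVT1 locus (mir-1204 to mir-1208), hairpins within a long noncoding RNA gene next to an oncogene, had no count in either library. On chromosome 19, the members of the primate-specific miRNA cluster had 1 count each, miR-1283 in replicate 2 and miR-1323 in replicate 8. Of the mir-1247 arms, from the imprinted region on chromosome 14, miR-1247-3p had 2 counts in replicate 2 and none in replicate 8, and miR-1247-5p had none. None of these names was detected.

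The libraries were compared with each other by a two-sided exact binomial test on each name with at least 10 summed counts, with Benjamini-Hochberg adjustment over all 695 such names of the table. It compares these 2 libraries and no conditions. Of 47 members tested, 18 (38.3%) had an adjusted p under 0.05, against 34.2% of all names tested, so the share was near the background. Of the 47 tested, 3 (6.38%) passed and were higher in replicate 8, against 10.8% of all names tested, and 15 (31.9%) passed and were lower, against 23.5%. The split depends partly on the scaling. With library sizes scaled by TMM (a trimmed mean of ratios), 16 of the 47 members (34.0%) passed against 32.7% of all names, 4 (8.51%) of them higher, against 16.0%, and 12 (25.5%) lower, against 16.7%. With DESeq2 size factors the same numbers of members passed, against 32.2% of all names in either direction, 16.0% higher and 16.3% lower. The 2 scalings raise every log2 ratio by 0.10, and 15 members passed under all 3 library sizes. The median log2 ratio (replicate 8 over replicate 2) was -0.24 over the members and -0.11 over all names tested, and the median absolute ratio was 0.34 against 0.33. Of the 47 members, 34 were below 0, and 32 under either scaling. The same count over all 695 names was not made. Their median on total counts was also below 0, so no trait of the members is drawn from it.

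**Figure D3:**
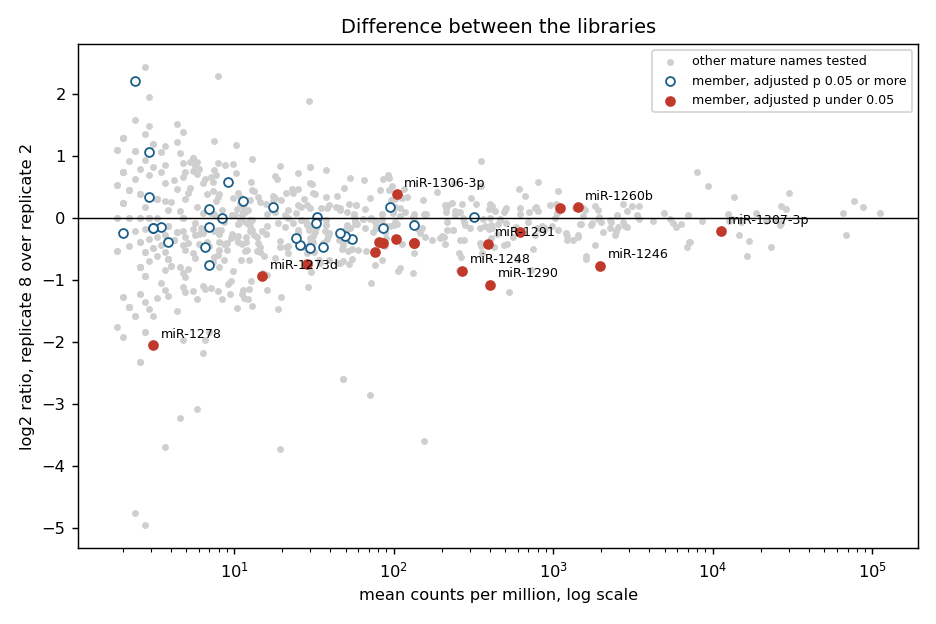
Log2 ratio of replicate 8 over replicate 2 against the mean level in CPM (log axis), with all tested names in grey and members in colour, filled red where the exact binomial adjusted p is under 0.05. Most red points lie below 0, miR-1290 and miR-1278 lowest, and miR-1306-3p is the highest of the 3 above it.

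Among the members past the threshold, the largest differences towards replicate 2 were those of miR-1278, miR-1290 and miR-1273d. miR-1278, from an intron of CDC73, was counted 14 times in replicate 2 and 3 times in replicate 8. On the log2 scale its ratio was -2.05 (exact binomial 95% limits -4.67 and -0.38, adjusted p = 0.024). Its low counts make the size uncertain. For miR-1290 the log2 ratio came to -1.08 (limits -1.21 and -0.95, exact binomial adjusted p = 3.9e-63). For miR-1273d, from an intron of KIF1B, the ratio was -0.94 (-1.66 to -0.27, exact binomial adjusted p = 0.014). Only miR-1278 and miR-1290 passed the threshold and also differed more than 2-fold in these counts, which is 4.26% of the members tested against 6.47% of all names. With either scaling miR-1290 came to -0.98, just under 2-fold.

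The other U2-like and snoRNA entries were also lower in replicate 8. The log2 ratio was -0.77 for miR-1246 (-0.83 to -0.72, exact binomial adjusted p = 4.0e-163) and -0.85 for miR-1248 (-1.01 to -0.70, adjusted p = 2.2e-27). For miR-1291 it was -0.42 (-0.54 to -0.29, adjusted p = 2.6e-10). These held under both scalings. The mural marker miR-143-3p, given above, moved in the same direction, and its part was not tested. miR-1307-3p had a ratio of -0.21 (-0.24 to -0.19, adjusted p = 1.5e-72), which became -0.11 under either scaling. Of the rest of the 15 lower members, 5 were on the repeat-derived list (miR-1273d is given above). miR-1285-5p was at -0.74 (exact binomial adjusted p = 0.0065), miR-1303 at -0.56 (adjusted p = 0.00055), miR-1268a and miR-1268b both at -0.41 (adjusted p = 0.00062) and miR-1254 at -0.39 (adjusted p = 0.016). Outside that list were miR-1301 at -0.23 (adjusted p = 1.6e-05), miR-1275 at -0.41 (adjusted p = 0.0083) and miR-1296 at -0.34 (adjusted p = 0.018).

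In the other direction, 3 members passed. For miR-1306-3p the log2 ratio was 0.38 (limits 0.14 and 0.63, exact binomial adjusted p = 0.0065), miR-1260b of 0.17 (0.10 to 0.23, adjusted p = 3.2e-06) and miR-1260a of 0.15 (0.08 to 0.22, adjusted p = 0.00034). Under both scalings these stayed above 0 and past the threshold, and miR-1298, with 2 and 11 counts, joined them. miR-1273g-3p (ratio 0.01, adjusted p = 0.99) did not pass. Among the lower members, miR-1275, miR-1254 and miR-1296 passed on total counts but under neither scaling.

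Arm use was compared within hairpins that have an entry for both arms. There were 16 such hairpins, of which 7 had an arm sum of 20 or more counts in each library. One arm was dominant in 4 of these 7 (57.1%), with over 90% of the sum in replicate 2 and in replicate 8, against 63.6% of the 253 such hairpins of the table. mir-1307 and mir-1273g used the 3p arm, with 99.7% and 99.9% of their counts there in both libraries. For the former the 5p arm still had 114 and 82 counts. mir-1292 and mir-1271 used the 5p arm: it held 98.95% in replicate 2 and 99.43% in replicate 8 for mir-1292, and 96.5% and 96.3% for mir-1271.

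**Figure D4:**
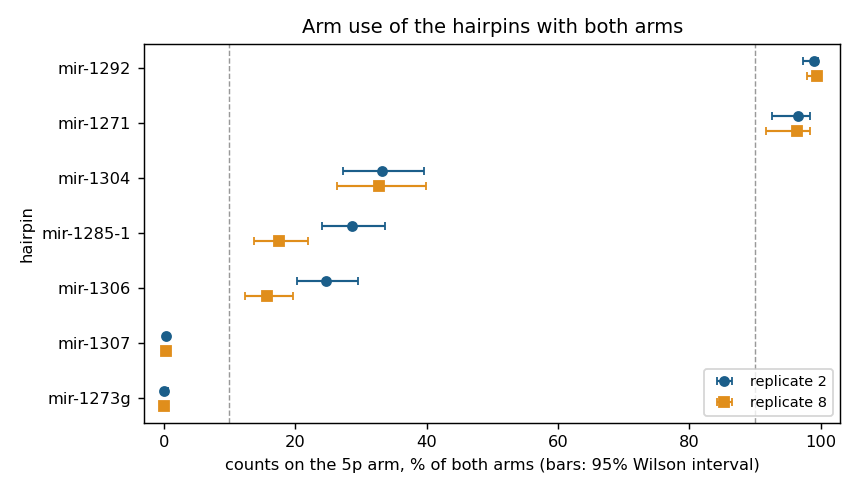
Share of counts on the 5p arm in % for the 7 hairpins with enough counts, with replicate 2 as blue circles and replicate 8 as orange squares, 95% Wilson intervals as bars and dashed lines at 10% and 90%. The intervals of mir-1285-1 and of mir-1306 do not overlap between the libraries, and those of mir-1304 nearly coincide.

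The 3 hairpins without a dominant arm all had more 3p than 5p counts. For mir-1304 the 5p share was 33.2% (27.3 to 39.6) in replicate 2 and 32.8% (26.3 to 39.9) in replicate 8. For mir-1285-1 it was 28.6% (24.1 to 33.6) in replicate 2 and 17.5% (13.8 to 21.9) in replicate 8. For mir-1306 it was 24.7% (20.3 to 29.6) and 15.7% (12.4 to 19.6). In these hairpins the 3p counts were higher and the 5p counts lower in replicate 8, except in mir-1304, where both arms were lower. The reads of miR-1285-3p can also come from mir-1285-2, to which the table gives 236 and 273 counts for that arm.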

How the data were processed

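Small RNA of 2 hCMEC/D3 libraries (replicate 2 and replicate 8) was sequenced after adaptor ligation, 12 to 15 cycles of PCR and gel selection of the 125 to 160 bp fraction, per the labels' protocols. The submitters' processing notes name CASAVA 1.9, FastQC, cutadapt, Bowtie 0.12.7 and hg19; settings, the counter and the miRNA release are not given in the sources used here. The authors deposited raw counts, per the file headers, for each pair of mature and precursor name. The deposited RPM values equalled the counts scaled by one constant per library (3180045 and 3205752), and were used as an alternative scale only.

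Each mature name was taken once, at its highest entry, except miR-1322, whose highest entry is outside the numbers chosen and was replaced by the entry within them. CPM, exact binomial tests with Benjamini-Hochberg adjustment, log2 ratios with 0.5 counts added and Wilson intervals were computed with Python 3.11.15 and scipy 1.17.1. The binomial step was tested on simulated data. TMM (edgeR 4.0.16) and DESeq2 1.42.0 size factors gave alternative library sizes. edgeR's quasi-likelihood test needs a second group and was not run. Hairpins were placed on GRCh37 with GENCODE 44, or by an exact match of the RefSeq hairpin (7 hairpins). Mature sequences were searched on both strands and compared with the annotated small RNA genes at 0 or 1 mismatch.

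Named were members with at least 100 summed counts, those on the list of other small RNA genes, the 3 with the largest called ratio in each direction, both arms of hairpins with at least 100 counts, and members with 10 or more summed counts on the lists (PVT1 locus, chromosome 19 cluster, chromosome 14 region, repeat-derived). Others named are marker miRNAs, or, like miR-1298 and the seed partners, were chosen after their values were seen. The members, lists and rule were chosen with earlier results of these data known. Alternatives covered repeated entries, scaling, count filters, the counts added, arm thresholds and leaving out each library. Counting names with the same counts once was added after seeing the data.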

Additional observations from a re-analysis of the deposited data

How the results depend on the processing

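Over 7 results, 41 values were recomputed. Of these, 30 stayed and 11 moved. A value stayed if it was within 1 SD of the libraries for levels and shares, or within 1.5 times for counts. For the median ratio it had to be within the binomial interval (0.23 to 0.41). Reversal of direction was not assessed. With 100 counts in place of 10, 22 members were detected. The summed level was 16807 CPM with repeated entries summed, 16419.5 on the deposited RPM scale, 21664 when miR-126-3p is left out of the total, 8028 without miR-1307-3p and 14078.5 without the entries overlapping other small RNA genes. The share of the 3 most abundant members, 75.9%, was 74.4% with repeated entries summed and 86.9% without the overlapping entries, when other names take their places. The SD of this share was 0.022 percentage points, so small shifts count as moved. Members that differed between the libraries numbered 18, and 2 when more than 2-fold was required as well. The share of overlapping entries, 26.8%, was 3.40% by the annotation alone and 26.3% with repeated entries summed. Each of these alternatives drops names, changes the denominator or tightens a threshold, so some shift is built in. Leaving out each library in turn gave 40 to 41 detected members, a summed level of 17580.2 to 20895 CPM, a share of 75.90% to 75.93% for the first 3, 4 to 5 hairpins with a dominant arm and 26.4% to 27.1% for the overlapping entries. With 2 libraries, each value always lies within 1 SD of their mean. The level and the shares from this step therefore could not count as moved. Counting miR-1268a and miR-1268b once gave 19103 CPM. No paired analysis was possible because there is 1 group. With 2 libraries of one line the levels carry no estimate for other cultures, and names under 10 counts were not ordered.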

Other observations

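The hairpins mir-1200 to mir-1324 were set beside 2 other blocks of precursor numbers. Of 130 names from precursors mir-549 to mir-653, 22 were detected (16.9%), with a summed level of 8362 ± 67.8 CPM, led by miR-652-3p. Of 275 names from precursors mir-3100 to mir-3999, 53 were detected (19.3%), with 3982.5 ± 333 CPM, led by miR-3615. The members' 37.3% and 19237.5 CPM were higher than either. Without miR-1307-3p the members' sum was 8028 CPM, under the whole sum of mir-549 to mir-653 and above that of mir-3100 to mir-3999. The top names of those blocks, miR-652-3p (2281 CPM) and miR-3615 (1751 CPM), were kept in. The 8028 CPM is therefore not a like comparison with either sum. These blocks were chosen as comparisons by their numbers and the differences were not tested.

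Some members carry the seed of a miRNA outside the block (bases 2 to 8, in capitals), and 2 such pairs are shown. In the first pair the member was the higher.

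miR-1271-5p: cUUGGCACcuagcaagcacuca
miR-96-5p: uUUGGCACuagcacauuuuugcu
miR-1297: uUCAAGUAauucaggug
miR-26a-5p: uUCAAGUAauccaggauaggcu

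miR-1271-5p was at 54.5 ± 9.17 CPM, with 166 and 131 counts, and miR-96-5p at 21.7 CPM, with 59 counts in both libraries. miR-96-5p belongs to a sensory-organ cluster. miR-1297 had no count, while miR-26a-5p was at 18637 CPM and miR-26b-5p at 463 CPM. Of 66 distinct seeds among the 70 members with a sequence, 16 were carried by 2 or more names, 4 of them by members only and 12 also by names outside the block. The same share over all names of the table was not computed, so no trait of the members is drawn from it.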
